A study of Homo sapiens with 6 samples.

Results

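The genes described here are the Wnt ligands, their Frizzled receptors and LRP co-receptors, and the secreted DKK and SFRP antagonists. Their transcripts were measured by RNA sequencing in cultured LX-2 cells, which are immortalised stellate cells of human liver. They were taken by symbol from the protein-coding rows of the deposited tables: 19 WNT genes, 10 FZD genes, LRP5 and LRP6, 4 DKK genes and 4 SFRP genes, 39 members of 21533 rows in all. All 6 samples received palmitic acid, a saturated fatty acid, after siRNA transfection and were collected 24 h after it was added. In 3 samples the siRNA was a control, and in 3 it was directed against PERK, the endoplasmic reticulum stress sensor encoded by EIF2AK3. The series concerns the role of PERK in stellate cells during liver cancer. Cells without palmitic acid were not analysed here, LX-2 is 1 line, and the medium held low serum, so every comparison is between siRNAs under lipid load in that line.

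Wnt proteins are lipid-modified secreted ligands that bind Frizzled receptors. With an LRP co-receptor they stabilise β-catenin, which acts with TCF and LEF factors in the nucleus, and through other receptors they control cell polarity and movement without β-catenin. SFRP proteins bind Wnts outside the cell, DKK1 blocks the LRP co-receptors, and Wnt signalling is known for its part in stellate cell activation and liver fibrosis.

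Depth was 18560051 to 19585872 exon reads per library in controls and 17937141 to 19535253 after PERK siRNA. EIF2AK3 itself stood at 12.9, 13.0 and 13.9 CPM (read counts scaled to library size with TMM factors) in control samples and at 4.37, 4.96 and 5.52 CPM in PERK siRNA samples, so the log2 fold change was -1.42 (SE 0.10, adjusted p = 3.0e-13 by edgeR's quasi-likelihood test). Of 10 stellate markers, 9 passed the expression filter, DES had at most 1 read in any sample, and their sum, mostly VIM and COL1A1, was 6623 to 6877 CPM in controls and 7266 to 7350 CPM with PERK siRNA. Other stellate markers moved both ways within that sum. ACTA2 was 3.86-fold, COL1A2 2.30-fold, RGS5 1.99-fold and LOX 1.87-fold higher, COL3A1 was 1.86-fold and PDGFRB 1.13-fold lower, and TIMP1 did not pass. Of 5 hepatocyte markers, ALB, APOA1, APOB and TTR had no read in any sample, and the sum was 3.75 to 4.97 CPM in controls and 3.43 to 4.37 CPM with PERK siRNA. The summed markers of endothelial cells were 11.2 to 11.6 CPM in controls and 3.03 to 3.63 CPM with PERK siRNA, with a fall of PECAM1 from 8.90 to 9.003 CPM to 0.50 to 0.72 CPM. KDR stood higher with PERK siRNA without overlap, at 1.77 to 2.25 beside 1.32 to 1.61 CPM, and did not pass (adjusted p = 0.076). Those of cholangiocytes were 129.7 to 138.9 and 86.2 to 97.7 CPM, mostly SOX9, and those of leukocytes 77.0 to 79.4 and 71.9 to 74.6 CPM, mostly CD68. Within the leukocyte list CD14 was 1.39-fold lower and CD68 did not pass (adjusted p = 0.20). PTPRC went the other way, at 2 to 8 reads in controls and 10 to 11 with PERK siRNA, too scarce to test. The part of these levels in the results below was not tested. Whether the samples of a group are separate cultures is not said in the labels. P-values then measure only the spread among these libraries, and that spread may be technical. In bulk RNA, fewer cells of a kind and less RNA per cell cannot be told apart.

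Of the 39 members, 22 passed the expression filter and 17 did not. Among the 22, PERK siRNA left 5 higher and 12 lower at an adjusted p under 0.05. Of all 12973 genes tested 34.4% were higher and 35.0% lower, 69.5% in all, so the share of members called, 77.3%, was near that of genes in general. The groups did not overlap for 17 of the 22, beside 71.8% of all genes tested. The median log2 fold change was -0.25 over the 22 members and 0.00 over all genes tested, and 7 of the 22 were called at a change of at least 2-fold, beside 7.91% of all genes. Of those 7, WNT7B, WNT7A and DKK2 passed the filter through the control samples only. Their place in the test thus rested on the group where they were high, which favours a call of lower without fixing it. The 4 others were SFRP1, DKK1, FZD8 and FZD6.

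**Figure D1:**
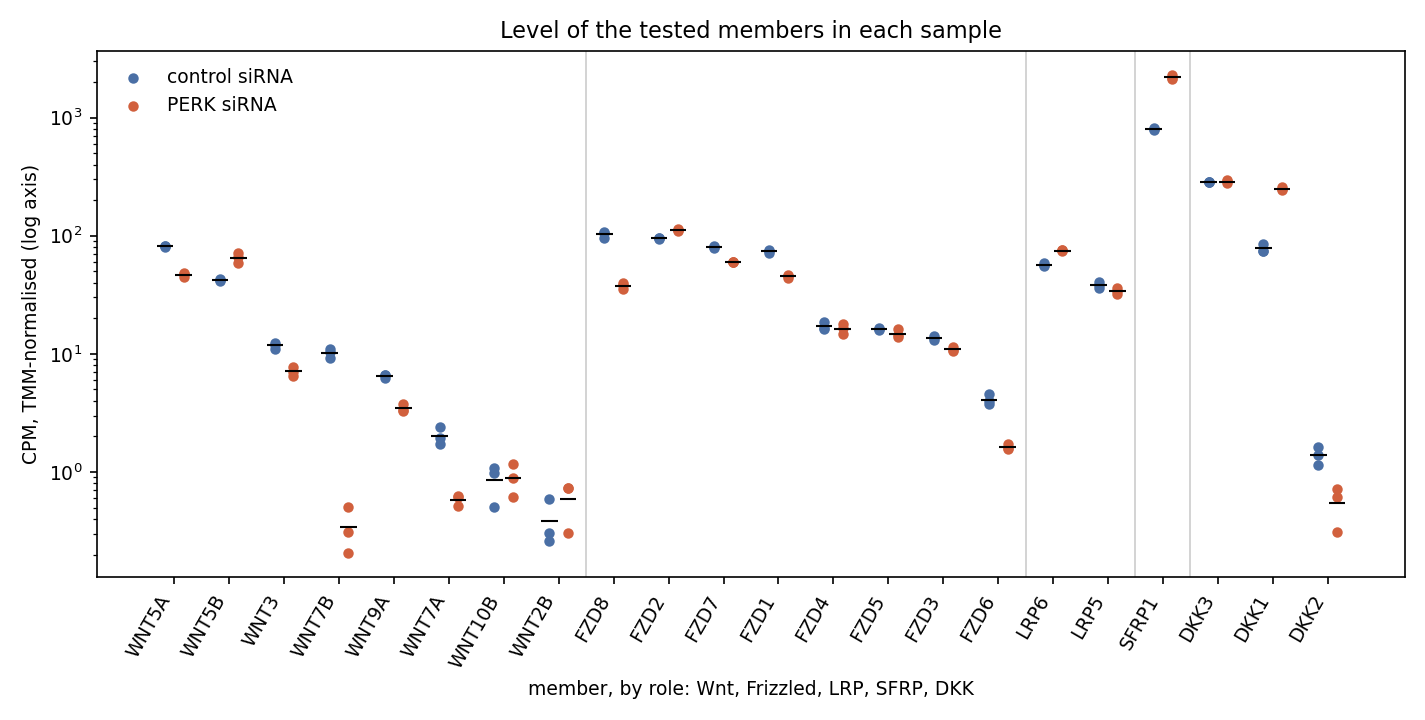
Level of the 22 tested members in each sample, in TMM-normalised CPM on a log axis, with members grouped by role on the horizontal axis. Points are samples (blue, control siRNA; orange, PERK siRNA) and bars are group means of 3 samples. SFRP1 and DKK1 stand higher in all PERK siRNA samples, and WNT7B drops from 10.2 to 0.34 CPM on average.

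Among the ligands, WNT7B all but disappeared. WNT7B (ENSG00000188064; chromosome 22, 45920362 to 45977129, minus strand, GRCh38), a ligand that can signal through β-catenin, stood at 9.26, 10.9 and 10.4 CPM in control samples and at 0.50, 0.20 and 0.31 CPM in PERK siRNA samples. The groups lay far apart, with 182 to 203 reads in each control and 4 to 9 after PERK siRNA. The log2 fold change was -4.89 (SE 0.20, adjusted p = 7.4e-19), a 29.7-fold lower level, and it was the largest fall among the 12973 genes tested. Its close relative WNT7A (chromosome 3, 13816258 to 13880121, minus strand) was scarcer, at 1.73, 1.93 and 2.38 CPM in control samples. With PERK siRNA it stood at 0.62, 0.51 and 0.62 CPM, below every control sample (log2 fold change -1.78, SE 0.28, adjusted p = 1.7e-06). Both WNT7B and WNT7A passed the expression filter through the control samples only, where they were high. Their adjusted p and the rank of the WNT7B fall are descriptions that carry this selection.

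WNT5A and WNT5B, paralogues best known for signalling without β-catenin, moved in opposite directions. WNT5A (chromosome 3, 55465715 to 55490539, minus strand) stood at 81.4, 82.3 and 79.4 CPM in control samples and at 44.9, 47.9 and 47.8 CPM with PERK siRNA. It fell in all PERK siRNA samples, with groups that did not overlap (log2 fold change -0.79, SE 0.04, adjusted p = 5.3e-17). WNT5B (chromosome 12, 1529891 to 1647243, plus strand) stood at 42.9, 41.8 and 41.0 CPM in control samples and at 70.6, 58.9 and 65.5 CPM with PERK siRNA. It was the 1 ligand that rose past the test (0.63, SE 0.06, adjusted p = 9.6e-09). Levels per exon length rest on the length given to each gene, and the exon lengths in the deposited tables were within 10% of those of GENCODE 29 for 14 of the 22 tested members. Orders that change with the GENCODE length, an alternative chosen after seeing the data, are given beside the TPM. In deposited TPM the control levels were alike, at 45.02 ± 1.19 TPM for WNT5B and 44.3 ± 1.16 TPM for WNT5A (SD, n = 3 each), a gap within their spread. On GENCODE lengths they were 33.97 ± 0.90 and 38.2 ± 1.00 (SD, n = 3 each), with WNT5A ahead in all 3 control samples. With PERK siRNA WNT5B stood at 69.5 ± 5.87 TPM and WNT5A at 25.5 ± 1.06 TPM (SD, n = 3 each). The ratio of WNT5B to WNT5A in TPM was therefore 1.04, 0.998 and 1.02 in control samples and 3.09, 2.42 and 2.69 in PERK siRNA samples, with no overlap. On GENCODE lengths it was 0.906, 0.872 and 0.887 in control samples and 2.70, 2.11 and 2.35 in PERK siRNA samples.

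The promoters of these paralogues are shown because the pair diverged. RefSeq's promoter table (GRCh38.p14) lists 2 starts for each gene, and the deposited counts per gene do not tell them apart. The windows below are those of the more upstream start, 250 bases before it to 50 after it, 5′ to 3′. Searched on both strands, neither window held any of 7 motifs: CTTTGAA and CTTTGAT (cores bound by TCF/LEF factors), TGANTCA (AP-1), TGATGNAA (the ATF4-CHOP composite element), ACGTG (the hypoxia response core), TATAAA (the TATA box) and an NF-κB motif. Of the bases, 56.3% were G or C for WNT5A and 51.7% for WNT5B, beside a median of 58.7% over all 35116 windows. No match says only that these letters are not in these windows.
WNT5A, chr3:55487257-55487556, minus strand: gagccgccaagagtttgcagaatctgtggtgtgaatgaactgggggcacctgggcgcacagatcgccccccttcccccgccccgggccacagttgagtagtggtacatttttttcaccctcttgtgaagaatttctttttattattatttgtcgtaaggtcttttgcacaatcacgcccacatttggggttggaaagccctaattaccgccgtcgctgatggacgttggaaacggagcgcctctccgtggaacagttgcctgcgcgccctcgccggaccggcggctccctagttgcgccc
WNT5B, chr12:1616806-1617105, plus strand: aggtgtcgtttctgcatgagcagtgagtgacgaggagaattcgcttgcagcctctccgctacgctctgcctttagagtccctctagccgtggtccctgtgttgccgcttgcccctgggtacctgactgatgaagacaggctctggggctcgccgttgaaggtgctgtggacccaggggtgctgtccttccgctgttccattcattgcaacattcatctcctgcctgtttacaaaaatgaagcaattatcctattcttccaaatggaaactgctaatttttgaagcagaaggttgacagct

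Of the other ligands, 2 more passed the test and both were lower. WNT3, an activator of β-catenin signalling (chromosome 17, 46762506 to 46833154, minus strand), stood at 11.9, 11.0 and 12.3 CPM in control samples and at 7.79, 6.55 and 7.02 CPM with PERK siRNA (log2 fold change -0.73, SE 0.10, adjusted p = 1.0e-07). WNT9A (chromosome 1, 227918656 to 227947898, minus strand) stood at 6.56, 6.27 and 6.68 CPM in control samples and at 3.25, 3.79 and 3.33 CPM with PERK siRNA (-0.91, SE 0.13, adjusted p = 3.1e-07). For both genes the groups did not overlap. WNT10B had 10 to 20 reads in controls and 11 to 23 after PERK siRNA and did not pass (0.08, SE 0.33, adjusted p = 0.85). WNT2B had 5 to 11 and 6 to 14 reads and did not pass either (0.60, SE 0.44, adjusted p = 0.22). Of the WNT2B exon bases 21.2% overlap ST7L on the opposite strand, and 81.8% of its reads were placed uniquely, so its values are uncertain.

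Per exon length, WNT5B and WNT5A were followed in controls by WNT3 at 9.40 ± 0.44, WNT7B at 6.98 ± 0.60, WNT9A at 5.67 ± 0.14 and WNT7A at 1.76 ± 0.28 TPM (SD, n = 3 each). With PERK siRNA WNT3 stood at 5.67 ± 0.46, WNT9A at 3.00 ± 0.27, WNT7A at 0.51 ± 0.05 and WNT7B at 0.23 ± 0.10 TPM (SD, n = 3 each), so WNT7B had dropped from the fourth ligand to below WNT10B and WNT7A.

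The remaining 11 WNT genes were too scarce to test. WNT11 was the most counted of them, at 4 to 7 reads in controls and 5 to 9 after PERK siRNA, followed by WNT10A with 2 to 3 and 1 to 4 reads and WNT4 with 0 to 7 and 0 to 4. WNT1, WNT2, WNT3A, WNT6, WNT9B and WNT16 never exceeded 2 reads, and WNT8A had none. A count of 0 allows up to 3 reads, or 0.153 to 0.167 CPM in these libraries, by counting error only. WNT8B had no read in any control sample and 4, 3 and 1 reads in the PERK siRNA samples. It was the 1 untested member that passed when no filter was applied (adjusted p = 0.013), at read counts around that floor.

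Several WNT genes lie side by side in the genome, and in these pairs at most 1 neighbour was well counted. WNT3 and WNT9B start 46 bases apart on opposite strands, yet WNT3 had up to 238 reads in a sample and WNT9B at most 1. WNT9A and WNT3A are separated by 59152 bases, with up to 129 reads for WNT9A and at most 1 for WNT3A. WNT10B and WNT1, 6689 bases apart, had up to 23 and at most 1 reads, and WNT6 and WNT10A, 6129 bases apart, at most 2 and 4. Summed over all 19 ligands the level was 115.3 ± 1.39 TPM in controls and 107.1 ± 5.04 TPM with PERK siRNA (SD, n = 3 each). The sums did not overlap between the groups. WNT5B made up 39.0% ± 0.89 of that sum in controls and 64.8% ± 2.45 with PERK siRNA, WNT5A 38.4% ± 0.57 and 23.9% ± 2.04, and WNT7B 6.06% ± 0.48 and 0.21% ± 0.09 (SD, n = 3 each). On GENCODE lengths WNT5B made up 34.7% ± 0.89 and 60.6% ± 2.51, and WNT5A 39.0% ± 0.68 and 25.5% ± 2.10 (SD, n = 3 each).

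**Figure D2:**
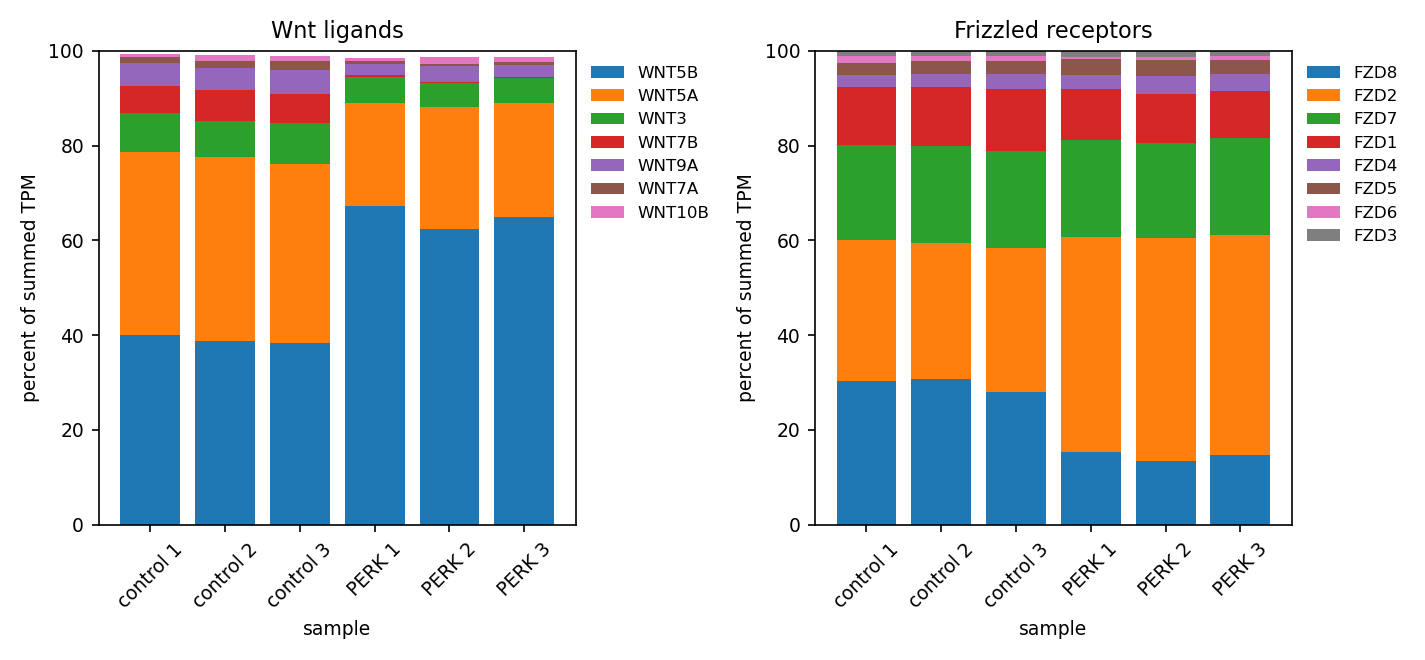
Make-up of the summed ligand level (left) and of the summed Frizzled level (right) in each sample, as percent of TPM, with 1 bar per sample. Shares use the deposited exon lengths, and ligands other than the 7 shown make up the rest of the left bars. WNT5B widens from 39.0 to 64.8% of the ligand sum and FZD2 from 29.5 to 46.3% of the Frizzled sum, while FZD8 shrinks from 29.7 to 14.5%. On GENCODE lengths, not drawn, WNT5B goes from 34.7 to 60.6%, FZD2 from 41.5 to 58.9% and FZD8 from 23.4 to 10.4%.

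Among the Frizzled receptors, FZD8 fell furthest by estimate, though the fall of the scarcer FZD6 (log2 fold change -1.32, SE 0.18) was within error of it. FZD8 (ENSG00000177283; chromosome 10, 35638249 to 35642278, minus strand), a single-exon receptor gene, stood at 104.5, 107.0 and 95.4 CPM in control samples and at 39.7, 35.5 and 37.9 CPM with PERK siRNA. Every PERK siRNA sample lay below every control sample (log2 fold change -1.44, SE 0.05, adjusted p = 2.0e-18), a 2.72-fold lower level. FZD2 (chromosome 17, 44557459 to 44559570, plus strand) was the 1 receptor of the family that rose, from 95.3, 93.6 and 95.8 CPM to 109.6, 114.8 and 112.1 CPM. Its rise was small (0.24, SE 0.03, adjusted p = 9.2e-08) and did not pass when tested against a 1.2-fold change.

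FZD8 is one of the most changed members with an entry in the promoter table, and its window is shown with the one motif match in capitals. That match is a TATA box, TATAAA, beginning 29 bases before the RefSeq start. Of all 35116 promoter windows, 11.5% hold these letters on either strand. The FZD8 window was 67.0% G or C.
FZD8, chr10:35642247-35642546, minus strand: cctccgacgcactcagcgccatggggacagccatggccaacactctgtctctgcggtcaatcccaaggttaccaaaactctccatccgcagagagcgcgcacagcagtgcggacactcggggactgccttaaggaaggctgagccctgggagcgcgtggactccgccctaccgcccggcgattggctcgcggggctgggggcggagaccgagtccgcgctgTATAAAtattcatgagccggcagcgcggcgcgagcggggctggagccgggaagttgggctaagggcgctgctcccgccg

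FZD1 and FZD7, both abundant, were lower as well. FZD1 (chromosome 7, 91264364 to 91271326, plus strand) stood at 71.7, 74.0 and 75.4 CPM in control samples and at 46.8, 46.0 and 43.8 CPM with PERK siRNA (log2 fold change -0.70, SE 0.04, adjusted p = 2.1e-15). FZD7 (chromosome 2, 202034587 to 202038445, plus strand) stood at 78.3, 81.1 and 79.4 CPM in control samples and at 59.9, 59.7 and 60.4 CPM with PERK siRNA (-0.41, SE 0.04, adjusted p = 3.3e-11). Neither gene's groups overlapped. The scarcer FZD6 (chromosome 8, 103298433 to 103332866, plus strand) stood at 4.53, 3.97 and 3.73 CPM in control samples and at 1.57, 1.59 and 1.72 CPM with PERK siRNA, with 3.40% of its exon bases under an antisense gene (-1.32, SE 0.18, adjusted p = 1.8e-07). FZD3 (chromosome 8, 28494205 to 28574268, plus strand) stood at 14.1, 13.2 and 13.6 CPM and at 10.8, 11.4 and 10.6 CPM, a fall of 0.32 on the log2 scale (SE 0.08, adjusted p = 0.0010) that did not pass against a 1.2-fold change.

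FZD4 and FZD5 overlapped between the groups. FZD4 stood at 16.2, 16.6 and 18.7 CPM in control samples and at 14.7, 17.8 and 16.4 CPM with PERK siRNA (log2 fold change -0.07, SE 0.08, adjusted p = 0.41). Of its exon bases 18.9% overlap PRSS23 on the opposite strand and 81.7% of its reads were placed uniquely. FZD5 stood at 15.9, 16.5 and 16.2 CPM in control samples and at 14.4, 16.2 and 13.8 CPM with PERK siRNA (-0.13, SE 0.08, adjusted p = 0.13). It passed without PERK siRNA sample 2 (-0.20, adjusted p = 0.032), with adjusted p of 0.032 to 1 over its alternatives. FZD9 and FZD10 had no read in any sample.

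Per exon length, FZD8 stood above FZD7 in controls and below it with PERK siRNA. In control samples FZD8 at 88.2 ± 5.90 TPM and FZD2 at 87.6 ± 0.40 TPM did not differ beyond their spread and were followed by FZD7 at 60.6 ± 1.47 and FZD1 at 37.3 ± 0.91 TPM (SD, n = 3 each). With PERK siRNA the order was FZD2 at 103.2 ± 3.04, FZD7 at 45.4 ± 0.26, FZD8 at 32.3 ± 1.61 and FZD1 at 22.9 ± 0.78 TPM (SD, n = 3 each). FZD2 has 3779 exon bases in the deposited tables and 2112 in GENCODE 29. On GENCODE lengths FZD2 led in both groups, at 156.8 ± 0.71 beside 88.6 ± 5.93 for FZD8 in controls and at 184.6 ± 5.44 beside 32.5 ± 1.62 with PERK siRNA (SD, n = 3 each). FZD7 was then at 72.01 ± 1.75 and 54.0 ± 0.31 (SD, n = 3 each), again below FZD8 in controls and above it with PERK siRNA. FZD4 and FZD5 followed at 8.11 ± 0.60 and 8.02 ± 0.19 TPM in controls (SD, n = 3 each), within their spread of each other, and stood at 7.67 ± 0.76 and 7.30 ± 0.65 TPM with PERK siRNA. FZD6 and FZD3 were level in controls, at 3.50 ± 0.36 and 3.45 ± 0.10 TPM, and apart with PERK siRNA, at 1.39 ± 0.07 and 2.76 ± 0.12 TPM (SD, n = 3 each). The level summed over the 10 receptors was 296.6, 303.1 and 290.5 TPM in control samples and 220.7, 226.6 and 221.6 TPM with PERK siRNA, with no overlap. The share of FZD7 in that sum was 20.4% ± 0.30 in controls and 20.4% ± 0.24 with PERK siRNA (SD, n = 3 each), and on GENCODE lengths 19.1% ± 0.29 and 17.2% ± 0.25.

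The LRP co-receptors exchanged their order. LRP6 (ENSG00000070018; chromosome 12, 12116025 to 12267012, minus strand) stood at 56.6, 58.4 and 55.6 CPM in control samples and at 75.1, 73.9 and 75.6 CPM with PERK siRNA (log2 fold change 0.40, SE 0.04, adjusted p = 1.2e-10). LRP5 (ENSG00000162337; chromosome 11, 68312609 to 68449275, plus strand) stood at 38.4, 40.3 and 36.4 CPM in control samples and at 31.8, 33.9 and 36.1 CPM with PERK siRNA. Its groups came close without overlapping, and its fall of 0.18 on the log2 scale (SE 0.05, adjusted p = 0.0044) did not pass against a 1.2-fold change. Per exon length LRP5 led in controls, at 24.4 ± 1.45 TPM beside 19.3 ± 0.63 TPM for LRP6, and LRP6 led with PERK siRNA, at 25.4 ± 0.18 TPM beside 21.5 ± 1.40 TPM for LRP5 (SD, n = 3 each).

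The secreted antagonists held the highest levels and the largest rises among the members. SFRP1 (ENSG00000104332; chromosome 8, 41261958 to 41309497, minus strand), a decoy that binds Wnt proteins, stood at 795, 822 and 784 CPM in control samples and at 2304, 2138 and 2169 CPM with PERK siRNA. All PERK siRNA samples lay far above all controls (log2 fold change 1.46, SE 0.03, adjusted p = 3.2e-25), a 2.75-fold higher level. By mean TPM SFRP1 ranked 252 among all 21533 rows in controls and 56 with PERK siRNA. It took 0.0803% ± 0.0020 of all exon reads in controls and 0.219% ± 0.0084 with PERK siRNA (SD, n = 3 each). The other SFRP genes were all but silent, with at most 1 read in any sample for SFRP2 and SFRP5 and none for SFRP4.

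DKK1 (ENSG00000107984; chromosome 10, 52314296 to 52318042, plus strand), which binds LRP5 and LRP6 and keeps them from Wnt, rose even more in relative terms. It stood at 74.1, 85.6 and 74.3 CPM in control samples and at 256.4, 241.6 and 246.9 CPM with PERK siRNA, with no overlap. The log2 fold change was 1.67 (SE 0.05, adjusted p = 2.9e-12), a 3.19-fold higher level, and 9.61% of its exon bases lie under the antisense gene PRKG1-AS1. By mean TPM its rank among all 21533 rows moved from 1365 to 326. DKK1 is known as a gene that β-catenin and TCF factors can switch on, so it is both an antagonist and a readout of the pathway.

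The DKK1 promoter is shown because DKK1 had the largest rise among the members. The capitals mark 2 motif matches, CTTTGAA, a TCF/LEF core beginning 95 bases before the RefSeq start, and TATAAA, beginning 30 bases before it. CTTTGAA occurs on either strand in 4.43% of all promoter windows and, among the 12 tested members in the table, in that of DKK1 alone. A match is a description of the letters and not of binding. AP-1, ATF4-CHOP and hypoxia motifs, present in 7.71, 3.62 and 21.4% of all windows, were found in none of the 12, nor was CTTTGAT, present in 2.62% of all. The NF-κB motif, in 5.68% of all windows, was found for FZD5 and WNT3, and TATAAA for DKK1 and FZD8. At the second start of WNT5B it was found on the other strand, as TTTATA beginning 78 bases before that start. DKK2, DKK3, FZD2, FZD3, FZD6, FZD7, LRP6, SFRP1, WNT10B and WNT7B are the tested members without an entry.
DKK1, chr10:52314031-52314330, plus strand: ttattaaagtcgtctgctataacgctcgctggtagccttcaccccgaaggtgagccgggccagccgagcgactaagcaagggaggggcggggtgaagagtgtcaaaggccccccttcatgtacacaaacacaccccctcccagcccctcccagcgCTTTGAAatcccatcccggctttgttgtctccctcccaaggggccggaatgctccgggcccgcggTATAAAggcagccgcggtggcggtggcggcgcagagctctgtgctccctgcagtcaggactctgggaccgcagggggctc

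The other DKK genes did not follow DKK1. DKK3 (chromosome 11, 11963106 to 12009769, minus strand) is a divergent relative that does not act on LRP co-receptors in the manner of DKK1. It was the most abundant DKK gene by reads in both groups and did not pass the test. It stood at 283.1, 284.6 and 287.0 CPM in control samples and at 293.3, 277.9 and 288.8 CPM with PERK siRNA (log2 fold change 0.01, SE 0.03, adjusted p = 0.78), with overlapping groups. In deposited TPM DKK1 stood above DKK3 in both groups, at 150.9 ± 13.9 beside 99.1 ± 0.75 TPM in controls and at 477.9 ± 11.6 beside 99.3 ± 2.10 TPM with PERK siRNA (SD, n = 3 each). DKK3 has 10029 exon bases there and 5059 in GENCODE 29, and DKK1 has 1805 and 2206. On GENCODE lengths the order in controls was reversed, with DKK3 at 196.5 ± 1.49 and DKK1 at 123.4 ± 11.4, while DKK1 led with PERK siRNA, at 391.0 ± 9.52 beside 196.8 ± 4.17 (SD, n = 3 each). DKK2 (chromosome 4, 106921802 to 107283806, minus strand) was scarce, with 22 to 32 reads in controls and 6 to 14 after PERK siRNA. It stood at 1.63, 1.39 and 1.14 CPM in controls and at 0.62, 0.72 and 0.31 CPM with PERK siRNA (-1.33, SE 0.32, adjusted p = 0.00054). DKK2 also passed the expression filter through the control samples only, where it was high. DKK4 had at most 1 read in any sample.

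**Figure D3:**
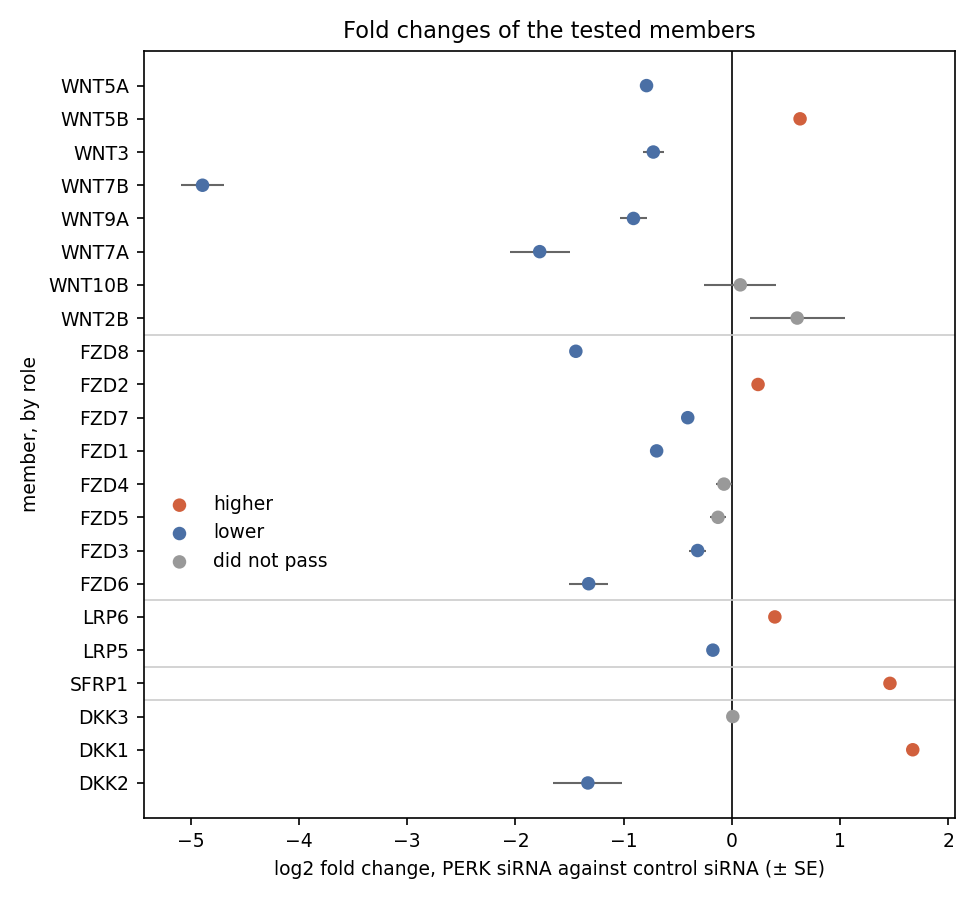
Log2 fold change (horizontal axis, PERK siRNA against control siRNA, edgeR) with its standard error for the 22 tested members, grouped by role on the vertical axis. Orange points were higher and blue points lower at an adjusted p under 0.05, and grey points did not pass. WNT7B lies at -4.89, and SFRP1 and DKK1 at 1.46 and 1.67.

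The rest of the pathway was read from 5 lists holding 74 further genes. Of the 55 that were tested, 23 were higher and 19 lower, which is 76.4% beside the 69.5% of all genes, and 4 were called at a change of at least 2-fold, beside 7.91% of all genes. The median log2 fold change was 0.10. By list, beside the same 69.5%, the share called was 79.2% of 24 intracellular genes, 80% of 10 targets and 78.6% of 14 receptors and polarity genes. It was 40% of 5 secretion factors and modulators and 100% of 2 R-spondin receptors and ligases.

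The intracellular list held the largest fall among these genes. Of its 24 members, all tested, 10 were higher and 9 lower, with a median of 0.02. CTNNB1, encoding β-catenin itself, stood at 216.7, 219.0 and 219.8 CPM in control samples and at 503.1, 500.0 and 512.9 CPM with PERK siRNA, a 2.31-fold rise (log2 fold change 1.21, SE 0.02, adjusted p = 2.7e-26). CTNNBIP1, encoding ICAT, a small protein that keeps β-catenin from TCF factors, went the other way, from 98.0, 92.8 and 95.6 CPM to 16.03, 17.9 and 19.3 CPM. Its level was 5.37-fold lower (-2.43, SE 0.05, adjusted p = 3.9e-26). In both genes the groups lay far apart. FBXW11, a subunit of a ligase that marks β-catenin for degradation, fell (-0.73), as did the β-catenin coactivator gene BCL9L (-0.57, with 80.7% of reads placed uniquely). BTRC, a close relative of FBXW11 named after its values were seen, went the other way and rose (0.49).

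Genes known as targets of β-catenin and TCF factors moved both ways, with 5 of 10 tested higher and 3 lower (median 0.37). AXIN2, a feedback inhibitor and a common readout of the pathway, was scarce at 3.00, 3.06 and 3.52 CPM in controls and stood at 4.32, 4.81 and 4.68 CPM with PERK siRNA. It rose (0.53, SE 0.14, adjusted p = 0.0019), with 69.9% of its reads placed uniquely. TCF7, a nuclear partner of β-catenin, rose from 4.54 ± 0.68 to 8.41 ± 0.87 CPM (0.89, adjusted p = 2.4e-07), its relative LEF1 from 21.9 ± 1.71 to 26.8 ± 0.63 CPM (0.30, adjusted p = 9.1e-05) and the cyclin gene CCND1 from 872 ± 25.5 to 1189 ± 43.1 CPM (0.45; SD, n = 3 each). The rise of LEF1 did not pass against a 1.2-fold change. TNFRSF19 (-0.82) and BAMBI (-0.89), a decoy receptor gene of the TGF-β family, fell.

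**Figure D4:**
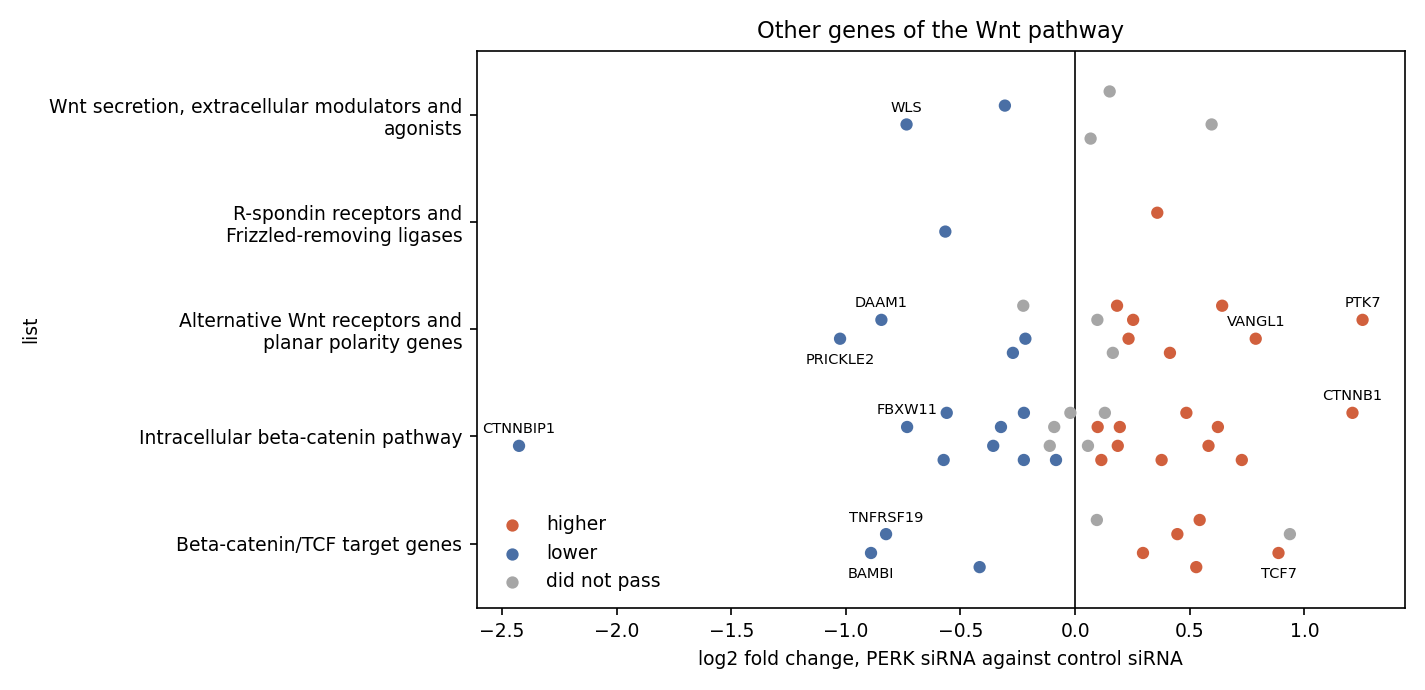
Log2 fold change (horizontal axis) of the 55 tested genes of the 5 other Wnt pathway lists (vertical axis), 1 point per gene, with vertical offsets only to separate points. Orange points were higher, blue points lower and grey points did not pass at an adjusted p under 0.05. CTNNBIP1 lies alone at -2.43, and CTNNB1 and PTK7 lie furthest to the right, at 1.21 and 1.25.

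Receptors and polarity genes that act without β-catenin gave 7 rises and 4 falls among 14 tested (median 0.17). PTK7, a co-receptor with an inactive kinase domain, stood at 66.4, 68.8 and 67.5 CPM in control samples and at 158.6, 160.1 and 164.4 CPM with PERK siRNA (log2 fold change 1.25, SE 0.03, adjusted p = 5.4e-24). The polarity gene VANGL1 rose (0.79), while PRICKLE2 (-1.03) and DAAM1 (-0.84), which links Dishevelled to actin, fell. Of the receptors that bind WNT5A, ROR2 rose slightly (0.18, adjusted p = 0.00020) and RYK fell slightly (-0.27, adjusted p = 2.5e-07). Neither passed against a 1.2-fold change. ROR1, a further WNT5A receptor named after its values were seen, rose more, from 20.6, 17.6 and 19.5 CPM to 28.9, 32.1 and 28.98 CPM (0.64, SE 0.06, adjusted p = 4.6e-10).

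In the list of secretion factors and extracellular modulators only 5 of 18 genes could be tested. WLS, the carrier that takes Wnt proteins to the cell surface, fell from 169.1, 165.6 and 161.3 CPM to 101.3, 97.8 and 99.0 CPM (log2 fold change -0.74, SE 0.03, adjusted p = 5.6e-19). PORCN, which attaches the lipid to Wnt proteins, stood at 10.3 ± 0.52 and 11.4 ± 0.46 CPM (SD, n = 3 each) and did not pass (0.15, adjusted p = 0.12). KREMEN1, a DKK1 receptor gene, fell (-0.31) but did not pass against a 1.2-fold change. By edgeR 0 genes of this list were higher at an adjusted p under 0.05, with 1 at an unadjusted p under 0.05 and 0 by DESeq2. That gene was FRZB, an SFRP relative, at 18 to 26 reads in controls and 23 to 48 after PERK siRNA (0.60, adjusted p = 0.053). It passed without PERK siRNA sample 2 (adjusted p = 0.012), when only uniquely placed reads were counted (0.027), with a filter of at least 1 CPM in 3 samples (0.043) and with no filter (0.047), with adjusted p of 0.012 to 0.45 over its alternatives. Among receptors of R-spondins and the ligases that remove Frizzled proteins, 2 of 5 were tested. LGR4, an R-spondin receptor gene, fell (-0.57, adjusted p = 1.3e-08), and ZNRF3, a ligase gene, rose (0.36, adjusted p = 3.2e-05), a call that did not pass against a 1.2-fold change.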

How the data were processed

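RNA of 6 LX-2 samples, 3 per group, was sequenced after preparation with a directional kit, per the labels' protocols, and read placement used build hg38 per the submitters' processing notes. Aligner, counter, strand setting and annotation release were not given in the sources used here. Per the file headers, the authors deposited total and unique exon reads per gene as counts, and TPM. Total exon reads were tested as deposited, and TPM served only to compare genes per exon length.

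edgeR 4.0.16 (R 4.3.3) was fitted to 12973 of 21533 rows with the quasi-likelihood test, TMM factors, the default expression filter, robust dispersions and no covariate. Benjamini-Hochberg adjustment ran over all genes tested, with a threshold of 0.05. CPM were normalised by TMM factors. Total exon reads per sample were 17937141 to 19585872. Unique reads made up 94.9 to 95.0%. Pairs of replicates gave 1.65 to 2.31 for chi-square over its degrees of freedom, more than sampling noise alone. The fit was tested on simulated data in which few genes changed. Because most genes tested were called here, that simulation does not cover this setting.

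Members and lists were chosen with earlier results of these data known. Every member was described, and outside them EIF2AK3, the (up to) 4 genes with the smallest adjusted p in each list, and CTNNB1, AXIN2, LEF1, PORCN, WLS, ROR2 and RYK. Gene places came from GENCODE 29 (GRCh38), matched on Ensembl identifiers, and promoters from RefSeq (GRCh38.p14), where 26 of 39 members matched by symbol. Alternatives used other scaling, filters, reads, tests or thresholds, the replicate number as a block, 1 sample fewer, or, added after seeing the data, GENCODE exon lengths. DESeq2 was version 1.42.0.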

Additional observations from a re-analysis of the deposited data

How the results depend on the processing

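Over 305 values of single members under the alternatives, 301 kept their direction where called and their side of the threshold, 3 lost the call and 1 gained it. The 3 lost calls were FZD2, FZD3 and LRP5 against a 1.2-fold change, and the gain was FZD5 without PERK siRNA sample 2. Members called higher numbered 4 to 6 and members called lower 10 to 13. Against a 1.2-fold change, all genes gave 2345 higher and 2344 lower in place of 4469 and 4545, and the other Wnt pathway genes 13 and 10 in place of 23 and 19. By list, that setting gave 4 higher and 2 lower for alternative receptors, 6 and 4 for the intracellular list, 3 higher for targets, 0 higher for R-spondin receptors and ligases, and 1 lower for secretion factors. The count of higher secretion factors, 0 by the main test, was 3 with no filter, 1 with a filter of at least 1 CPM in 3 samples, 1 on unique exon reads, and 0 to 1 with a sample left out. The test against a larger change asks more by construction, and the cause of the other shifts was not tested. The groups share replicate numbers, but samples of the same number did not deviate together (r of -0.05 to -0.03 over 9636 genes), and no sample correlated best with its own number. With the number as a replicate block, 5 members were higher and 12 lower, all genes gave 4460 higher and 4543 lower, and EIF2AK3 fell by 1.42 on the log2 scale. With GENCODE in place of deposited exon lengths, DKK1 over DKK3 in controls moved from 1.52 to 0.628 and FZD2 over FZD8 from 0.997 to 1.77. Depth limits the 17 untested members, none of which had more than 9 reads in a sample.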

Other observations

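NOTUM, which encodes an enzyme that removes the lipid from Wnt proteins, was too scarce to test. It had 2, 0 and 0 reads in the control samples and 5, 6 and 10 reads in the PERK siRNA samples, and it was named after its values were seen. NKD1, an inhibitor that binds Dishevelled and a known target of the pathway, was named in the same way. It had 7, 2 and 10 reads in control samples and 13, 12 and 11 in PERK siRNA samples. The groups did not overlap, as for 71.8% of all genes tested. The difference did not pass (log2 fold change 0.94, adjusted p = 0.058 by edgeR's quasi-likelihood test). NKD1 passed the expression filter through the PERK siRNA samples only, where it was high.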
